A study of Bos taurus with 2 samples.

Results

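The mir-200 family consists of 5 microRNAs (miRNAs), mir-200a, mir-200b, mir-200c, mir-141 and mir-429. They were taken by name from the 283 known bovine miRNAs and make up 5 of the 884 miRNA entries listed for the bovine mammary gland (MG). A further entry, CN-263-3p, repeats the sequence and counts of mir-200b and was not taken as a member. Each was listed with its 3p arm, the strand cut from the 3′ side of the hairpin precursor. The lactation (L) library was made from the MG of 1 multiparous Holstein cow, aged 6 years and in milk for 2 months. The non-lactation (NL) library was made from the MG of 1 other multiparous Holstein cow, aged 4 years, which was not lactating and not pregnant. With 1 cow per library, the stage of the gland, the age and the individual cow cannot be told apart. No difference has a replicate check within these 2 libraries. The study's microarray, on RNA pooled from several cows per stage, and its real-time PCR are not used here.

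For each miRNA, 3 values per library were deposited: the reads of the sequence found most often, the reads of all isomiRs (variants of the miRNA in length or sequence) and the number of kinds of isomiRs. Over all listed miRNAs, the most abundant sequences summed to 5745961 reads in L and 7879028 reads in NL, and the isomiRs to 10259829 and 14747740 reads. Levels are given as reads per 1000000 clean reads (RPM), and a ratio is the RPM of L over that of NL. The 95% interval of a ratio is exact (Clopper-Pearson, given the summed reads of both libraries). Intervals cover counting error only and say nothing of the spread between cows, since there is 1 library per condition. Copies made by PCR are not independent molecules, so the intervals can be too narrow even for counting error.

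miRNAs of the mir-200 family are known as markers of epithelial cells. In human and mouse cells they repress ZEB1 and ZEB2, transcription factors that silence E-cadherin, the adhesion protein of epithelial junctions, and thereby hold back the change of epithelial cells into mesenchymal cells. A miRNA recognises its targets mainly through its seed, bases 2 to 8 from the 5′ end. In the mammary gland, the epithelium forms the ducts and the milk-secreting alveoli. In bulk tissue, fewer cells of a type and less RNA per cell cannot be told apart.

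The 5 mature sequences are shown because the family was compared by its seeds, which are in capitals.
mir-200c-3p: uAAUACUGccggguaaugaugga
mir-200b-3p: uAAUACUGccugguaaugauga
mir-429-3p: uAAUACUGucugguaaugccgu
mir-141-3p: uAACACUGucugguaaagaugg
mir-200a-3p: uAACACUGucugguaacgauguu

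mir-200c, mir-200b and mir-429 shared the seed AAUACUG, and mir-141 and mir-200a shared the seed AACACUG. Counted from the 5′ end, with the base of mir-200c first, the only difference between these seeds was U4C. Outside the seed, mir-200c and mir-200b differed by G11U and G22A over 22 bases, and mir-141 and mir-200a differed by A17C and G22U. mir-200c and mir-429 were the least alike within a seed group, with 17 of 22 bases identical.

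The family lies in 2 places in the bovine genome (BTA 4.0), both on the minus strand. The hairpins of mir-141 (chr5:10482928-10483017) and mir-200c (chr5:10483359-10483423) are separated by 341 bp on chromosome 5. The hairpins of mir-429 (chr16:48593123-48593206), mir-200a (chr16:48594359-48594444) and mir-200b (chr16:48595027-48595085) follow each other on chromosome 16, with gaps of 1152 and 582 bp. In the RefSeq annotation of a later assembly, ARS-UCD2.0, the chromosome 5 pair overlapped the lncRNA LOC112446758 and lay between the coding genes PHB2 and PTPN6. Leaving the miRNAs themselves aside, the chromosome 16 trio overlapped no annotated gene there and lay between the coding genes TTLL10 and C16H1orf159. Each place held both seeds.

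All 5 members had more reads per 1000000 clean reads in L than in NL, by 17.1-fold for mir-141 down to 2.22-fold for mir-429. Their most abundant sequences summed to 145980 reads (12201 RPM) in L and 30395 reads (1903 RPM) in NL, a ratio of 6.41 (6.33 to 6.49). As a share of the reads of all known miRNAs, the family took 2.59% (2.58% to 2.60%) in L and 0.397% (0.393% to 0.402%) in NL. With all isomiRs, these shares were 3.10% (3.09% to 3.11%) and 0.484% (0.481% to 0.488%), and the ratio of the sums was 5.95 (5.90 to 6.001).

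mir-200c-3p was the most abundant member in both libraries by its most abundant sequence. It had 97776 reads (8172 RPM, 8121 to 8223) in L and 14688 reads (920 RPM, 905 to 935) in NL, a ratio of 8.88 (8.73 to 9.04). Among the 283 known miRNAs it ranked 12 in L and 35 in NL.

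mir-141-3p, its neighbour on chromosome 5, had the largest ratio of the family. It had 3873 reads (324 RPM, 314 to 334) in L and 302 reads (18.9 RPM, 16.8 to 21.2) in NL, a ratio of 17.1 (15.2 to 19.3). Its rank was 52 in L and 116 in NL, the largest move in rank of the 5 members.

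mir-200b-3p had 28517 reads (2383 RPM, 2356 to 2411) in L and 6598 reads (413 RPM, 403 to 423) in NL. Its ratio of 5.77 (5.62 to 5.93) was the largest on chromosome 16. mir-200a-3p had 13281 reads (1110 RPM, 1091 to 1129) in L and 7286 reads (456 RPM, 446 to 467) in NL, a ratio of 2.43 (2.36 to 2.50). mir-429-3p, the least abundant member in L, had 2533 reads (212 RPM, 204 to 220.1) there and 1521 reads (95.3 RPM, 90.5 to 100.2) in NL, a ratio of 2.22 (2.08 to 2.37).

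**Figure D1:**
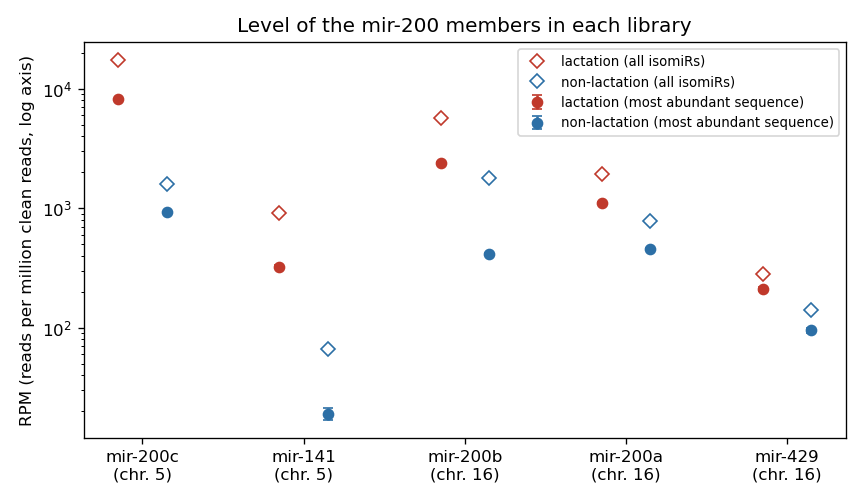
Reads per 1000000 clean reads (log axis) of the 5 mir-200 members in L (red, left) and NL (blue, right), for the most abundant sequence (filled, with exact 95% intervals, which cover counting error only) and for all isomiRs (open). Each member stands higher in L, and the gap is widest for mir-141, with 324 RPM in L and 18.9 RPM in NL.

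The order of the members differed between the libraries. By RPM of the most abundant sequence, it was mir-200c, mir-200b, mir-200a, mir-141 and mir-429 in L, and mir-200c, mir-200a, mir-200b, mir-429 and mir-141 in NL. No interval of a member overlapped that of its neighbour in these orders. Reads were not calibrated between sequences, so the order is one of reads.

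All 5 members had at least 100 summed reads, and all 5 were at least 2-fold higher in L. Of the 273 miRNAs of all 3 tables with at least 100 summed reads, among them the 5 members and CN-263-3p, a second listing of mir-200b-3p, 79 (28.9%) were at least 2-fold higher. At least 4-fold higher were 3 of 5 members (mir-141, mir-200c and mir-200b) and 29 of the 273 (10.6%). The median log2 ratio was 2.53 over the 5 members and 0.24 over the 273. By ratio, mir-141-3p ranked 7, mir-200c-3p 13, mir-200b-3p 20, mir-200a-3p 59 and mir-429-3p 68 among these 273. The count of members past 2-fold depended on scaling, being 4 with TMM factors, 3 with DESeq2 size factors and 3 without scaling, and mir-429 was under 2-fold in each of these. mir-200a stood at the limit, at 2.03 with TMM factors and 1.99988 (1.94 to 2.06) with DESeq2 size factors, and was at 1.82 without scaling.

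With the reads of all isomiRs, 5 of 5 members were again at least 2-fold higher, as were 97 of 343 miRNAs (28.3%). The median log2 ratio was then 1.67 over the members and 0.15 over the 343. mir-429-3p stood at the limit, with 2.00 (1.90 to 2.11). At least 4-fold higher were 2 of 5 members with these reads, since mir-200b-3p was then at 3.19 (3.14 to 3.23). The share of all miRNAs past 4-fold was not computed with all isomiRs.

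The chromosome 5 pair differed more between the libraries than the chromosome 16 trio. mir-200c and mir-141 together had 101649 reads in L and 14990 reads in NL, a ratio of 9.05 (8.90 to 9.21). mir-200b, mir-200a and mir-429 together had 44331 reads in L and 15405 reads in NL, a ratio of 3.84 (3.77 to 3.91). The ratio of the pair was 2.36 times that of the trio (exact conditional 95% interval 2.30 to 2.42), a value in which the library totals cancel. With all isomiRs, the pair had 216772 reads in L and 26499 reads in NL, and the trio 94526 and 43300 reads. The difference was then 3.75-fold (3.68 to 3.81). The pair stayed above the trio with any member left out, by 1.77-fold without mir-200a up to 4.46-fold without mir-200c.

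The make-up of the family's reads differed between the libraries. The chromosome 5 pair held 69.6% (69.4% to 69.9%) of the family's most abundant sequences in L and 49.3% (48.8% to 49.9%) in NL. mir-200c-3p alone held 67.0% (66.7% to 67.2%) in L and 48.3% (47.8% to 48.9%) in NL. mir-200a-3p held 9.10% (8.95% to 9.25%) in L and 24.0% (23.5% to 24.5%) in NL. By all isomiRs, mir-200b-3p was the largest member in NL, with 21.9% (21.8% to 22.1%) of the family's isomiR reads in L and 41.0% (40.6% to 41.3%) in NL.

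**Figure D2:**
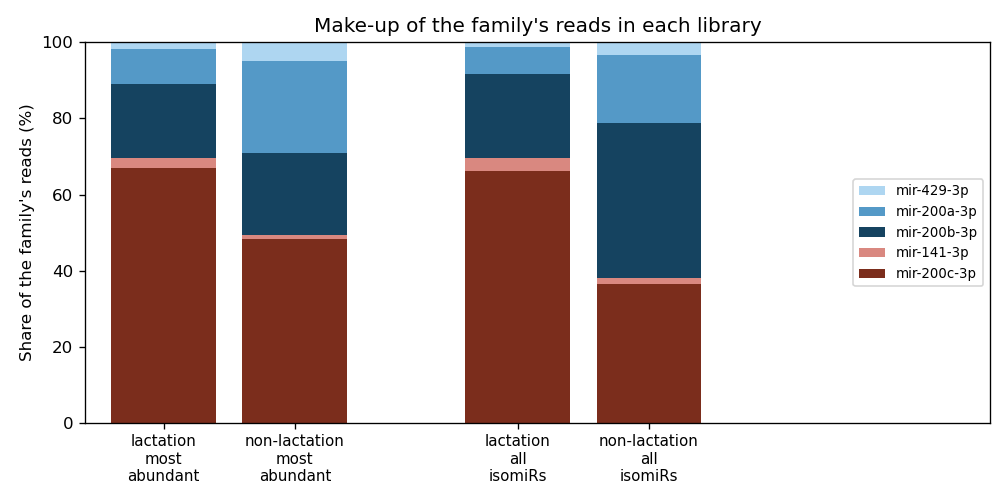
Share of the family's reads (%) held by each member in L and NL, for the most abundant sequences (left bars) and all isomiRs (right bars). Reds are the chromosome 5 pair and blues the chromosome 16 trio. The pair holds 69.6% of the most abundant sequences in L and 49.3% in NL.

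The difference between the seed groups changed direction with the way their members were combined. mir-200c, mir-200b and mir-429 together had 128826 reads in L and 22807 reads in NL, a ratio of 7.54 (7.43 to 7.65). mir-141 and mir-200a together had 17154 reads in L and 7588 reads in NL, a ratio of 3.02 (2.94 to 3.10). Summed this way, the ratio of the first group was 2.50 times that of the second (2.42 to 2.58), and 1.97 times with all isomiRs (1.93 to 2.01). mir-200c holds most reads of the first group and mir-200a most reads of the second. The direction turned without mir-200a, at 0.44 (0.39 to 0.50), and with the geometric mean of the members' ratios, at 0.75, since mir-141 had the largest ratio of all.

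Single members were then compared over all 10 pairs, with intervals widened by Bonferroni over the 10 pairs. Of these, 9 excluded equal ratios with the most abundant sequences and all 10 did with all isomiRs. The exception was mir-200a over mir-429, neighbours on chromosome 16 with different seeds, which differed by 1.09-fold (widened interval 0.990 to 1.21). At these read numbers, small differences can exclude 1, as did mir-200a over mir-429 with all isomiRs at 1.22-fold (widened interval 1.13 to 1.33). Pairs of other miRNAs were not compared, so the counts of 9 and 10 cannot be called particular to the family. On chromosome 5, the ratio of mir-141 was 1.93 times that of mir-200c (95% interval 1.71 to 2.18). On chromosome 16, the ratio of mir-200b was 2.37 times that of mir-200a (2.28 to 2.47) and 2.60 times that of mir-429 (2.42 to 2.78).

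Members that share a seed but not a chromosome differed as well. The ratio of mir-141 was 7.04 times that of mir-200a (6.23 to 7.96), that of mir-200c 3.997 times that of mir-429 (3.74 to 4.27) and that of mir-200c 1.54 times that of mir-200b (1.49 to 1.59). With all isomiRs, the 6 pairs between the chromosomes differed by 3.39-fold to 6.84-fold, and the 4 pairs within a chromosome by 1.22-fold to 1.59-fold. With the most abundant sequences these ranges overlapped, being 1.54-fold to 7.70-fold between and 1.09-fold to 2.60-fold within.

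isomiRs were counted for every member, and the most abundant sequence took a different share of them in each. For mir-200c-3p, 205862 isomiR reads were counted in L and 25436 in NL, a ratio of 10.8 (10.7 to 10.9). Its most abundant sequence made up 47.5% (47.3% to 47.7%) in L and 57.7% (57.1% to 58.4%) in NL. Its other isomiRs, without the most abundant sequence, thus had a larger ratio of 13.4 (13.2 to 13.7).

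mir-200b-3p differed in the opposite direction and by more. It had 68253 isomiR reads in L and 28595 in NL, a ratio of 3.19 (3.14 to 3.23). Its most abundant sequence made up 41.8% (41.4% to 42.2%) in L and 23.1% (22.6% to 23.6%) in NL. The other isomiRs of mir-200b-3p had a ratio of 2.41 (2.37 to 2.45), close to those of mir-200a-3p at 2.48 (2.40 to 2.57). Over the 176 known miRNAs with at least 100 isomiR reads in each library, the share of the most abundant sequence differed, L minus NL, by a median of -0.53 percentage points, with quartiles of -5.36 and 5.24. The share of mir-200b-3p was higher in L by 18.7 percentage points, and only 2 of the 176 moved further up. The other members were less extreme. The difference was -10.2 points for mir-200c-3p (18 of the 176 further down), 7.35 for mir-429-3p (28 further up), 7.09 for mir-141-3p (30 further up) and -0.50 for mir-200a-3p.

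The 3 other members had shares closer together. mir-200a-3p had 22880 isomiR reads in L and 12445 in NL, and its most abundant sequence made up 58.0% (57.4% to 58.7%) and 58.5% (57.7% to 59.4%) of them. The odds of its most abundant sequence against its other isomiRs differed by 0.98-fold (0.94 to 1.02), an interval that holds 1. For mir-141-3p, with 10910 isomiR reads in L and 1063 in NL, the share was 35.5% (34.6% to 36.4%) in L and 28.4% (25.7% to 31.2%) in NL. For mir-429-3p, with 3393 isomiR reads in L and 2260 in NL, it was 74.7% (73.2% to 76.1%) and 67.3% (65.3% to 69.2%). The median over known miRNAs with at least 100 isomiR reads was 45.1% in L (182 miRNAs) and 45.2% in NL (189 miRNAs). mir-429-3p, mir-200a-3p and mir-200c-3p lay above this median in both libraries, and mir-141-3p and mir-200b-3p below it.

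**Figure D3:**
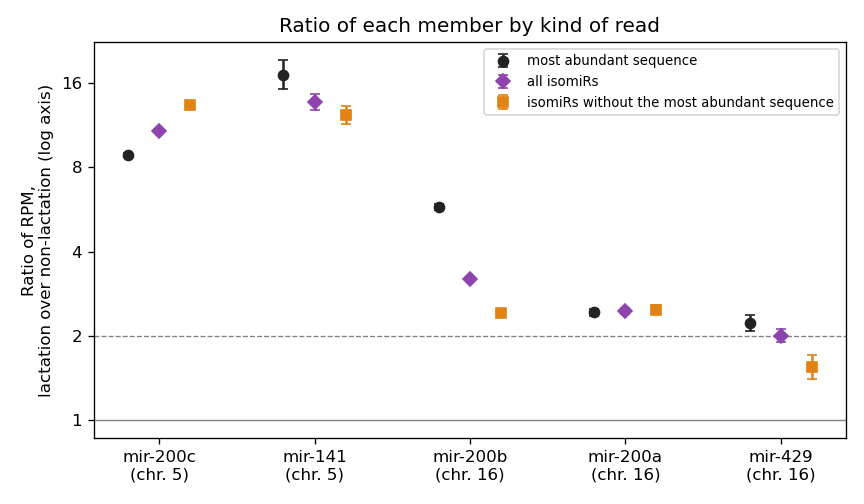
Ratio of RPM, L over NL (log axis), of each member for its most abundant sequence, all its isomiRs, and its isomiRs without the most abundant sequence, with exact 95% intervals that cover counting error only. The lines mark ratios of 1 and 2. For mir-200b the ratio is 5.77 for the most abundant sequence and 2.41 for the others, whereas for mir-200c it is 8.88 for the most abundant sequence and 13.4 for the others.

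The kinds of isomiRs followed the number of isomiR reads. mir-200c-3p had 241 kinds in L and 83 in NL, mir-200b-3p 215 and 98, and mir-200a-3p 121 and 65. mir-141-3p had 90 kinds in L and 15 in NL, the largest difference at 6-fold, and mir-429-3p had 38 and 16. Across known miRNAs with at least 100 isomiR reads, Spearman's rho between kinds and isomiR reads was 0.957 in L and 0.942 in NL. This is a description across miRNAs of 1 library, whose kinds and reads come from the same counts. In NL, mir-200b-3p had more kinds than mir-200c-3p, as it had more isomiR reads.

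**Figure D4:**
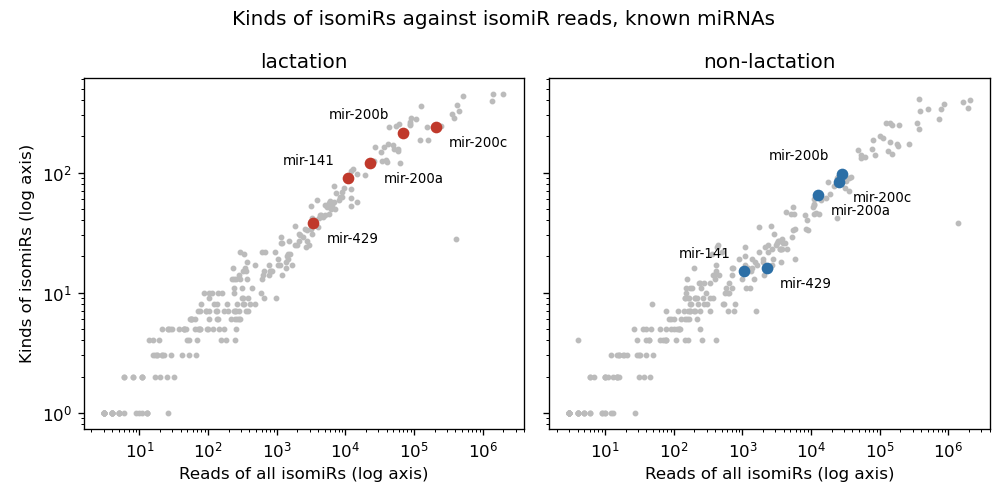
Kinds of isomiRs against reads of all isomiRs for the known miRNAs (grey, both axes log) in L (left) and NL (right), with the mir-200 members in colour. The members lie within the band of the other known miRNAs, from 38 kinds for mir-429 to 241 for mir-200c in L, and from 15 for mir-141 to 98 for mir-200b in NL.

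Hairpins of 4 members were listed among the candidate (CN) miRNAs at the same coordinates, and 3 of these hairpins also had a 5p entry, the strand from the other arm. The hairpins are shown because their arms were compared, and capitals mark the stretches read from each arm.
mir-200c: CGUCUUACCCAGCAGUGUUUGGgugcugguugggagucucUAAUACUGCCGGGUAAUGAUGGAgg
mir-141: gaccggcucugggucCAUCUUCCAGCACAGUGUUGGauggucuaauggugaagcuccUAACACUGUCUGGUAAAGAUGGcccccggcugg
mir-200a: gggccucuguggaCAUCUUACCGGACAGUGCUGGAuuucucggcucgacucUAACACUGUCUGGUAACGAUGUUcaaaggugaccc
mir-200b: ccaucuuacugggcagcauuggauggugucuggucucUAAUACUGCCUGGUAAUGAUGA

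The 3p arm outnumbered the 5p arm in all 3 hairpins and both libraries. CN-262-5p, from the hairpin of mir-200a, had 98 reads in L and 62 reads in NL, or 0.732% (0.595% to 0.892%) and 0.844% (0.648% to 1.08%) of the reads of both arms. CN-92-5p, from the hairpin of mir-141, had 40 reads in L and 3 reads in NL, or 1.02% (0.731% to 1.39%) and 0.984% (0.203% to 2.85%). CN-93-5p, from the hairpin of mir-200c, had 8 reads in L and 7 reads in NL, or 0.00818% (0.00353% to 0.0161%) and 0.0476% (0.0192% to 0.0981%). The ratio of the 5p arm over that of the 3p arm was 1.04 (0.33 to 5.28) for mir-141 and 0.87 (0.62 to 1.21) for mir-200a, and both intervals held 1. For mir-200c this was 0.17 (0.054 to 0.556), on 15 reads in all. The mir-200b entry of the candidate table, CN-263-3p, was identical to mir-200b-3p in sequence and in reads and was not counted again.

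A further 5 entries, all among the miRNAs conserved in other mammals (PC), began with the same first 18 bases as a member and differed from it at the 3′ end. They are shown because they were counted apart from the members, with capitals from the first base that departs from the member or extends it.
PC-141-3p: uaacacugucugguaaagaugC
PC-200b-3p: uaauacugccugguaaugaugUU
PC-200a-3p: uaacacugucugguaacgauguuU
PC-429-1-3p: uaauacugucugguaaugccA
PC-429-2-3p: uaauacugucugguaaugccguAA

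Each of the 5 departed at 1 base from the mammalian hairpin listed beside it, given as the hairpin's base, the position from the 5′ end of the miRNA and the base of the entry. The changes were G22C in PC-141-3p, A22U in PC-200b-3p, C24U in PC-200a-3p, G21A in PC-429-1-3p and C23A in PC-429-2-3p, so that all lay at or beside the 3′ end. For PC-200a-3p the bovine hairpin above gave the same C24U.

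PC-200a-3p was the most abundant of them, with 2499 reads (209 RPM) in L and 1863 reads (117 RPM) in NL. Its ratio of 1.79 (1.69 to 1.90) was 0.74 times that of mir-200a-3p (0.69 to 0.79). PC-141-3p had 152 reads in L and 36 reads in NL, a ratio of 5.63 (3.90 to 8.35), which was 0.33 times that of mir-141-3p (0.22 to 0.50). Both were thus higher in L, but by less than their members.

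PC-429-2-3p, which extends mir-429-3p by a pair of A residues, was lower in L. It had 93 reads (7.77 RPM) in L and 333 reads (20.9 RPM) in NL, a ratio of 0.37 (0.29 to 0.47), where mir-429-3p had 2.22. Of the reads of mir-429-3p and this entry together, it took 3.54% (2.87% to 4.32%) in L and 17.96% (16.2% to 19.8%) in NL. PC-200b-3p had 40 and 16 reads and PC-429-1-3p 23 and 9 reads in L and NL, and the intervals of their ratios over their members' held 1, at 0.32 to 1.11 and 0.68 to 3.78. Counting all 5 entries with the members, each sequence once, gave a family ratio of 6.08 (6.01 to 6.15), and mir-429 then stood at 1.90 (1.79 to 2.01).

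**Figure D5:**
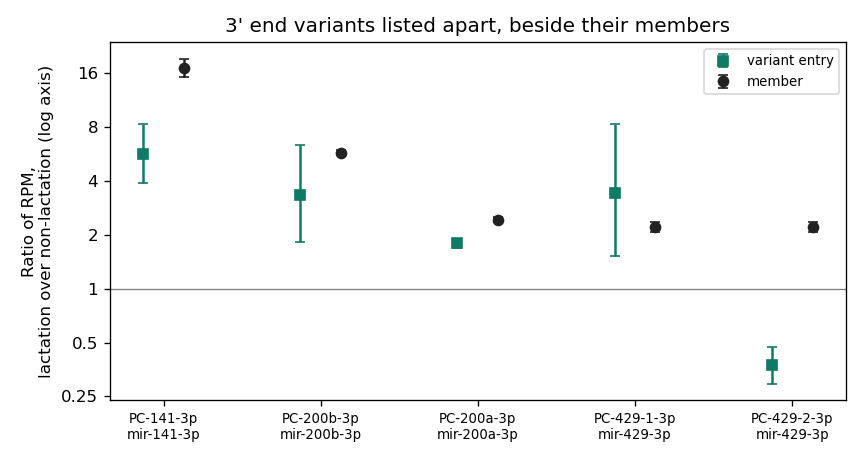
Ratio of RPM, L over NL (log axis), of the 5 conserved entries that differ from a member at the 3′ end (green squares) beside that member (black circles), with exact 95% intervals that cover counting error only. PC-429-2-3p lies below 1, at 0.37, while its member lies at 2.22.

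Among the other known miRNAs with at least 1000 summed reads (100 miRNAs), the 3 with log2 ratios nearest to the family's 2.68 were mir-1-3p at 2.67, mir-30f-5p at 2.51 and mir-148a-3p at 2.93, over 2 libraries. mir-1 is a miRNA of striated muscle, that of the heart included, and mir-148a is abundant in milk.

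Other miRNAs known from epithelium did not share 1 direction, so that the label of an epithelial family could not be checked by them. They summed to 2995 RPM in L and 954 RPM in NL over the 6 of 7 that were matched by name (all but mir-31-5p), with mir-375-3p holding most of this in L and mir-205-5p in NL. mir-375-3p, known from endocrine and secretory epithelium, had 2784 RPM in L and 200.4 RPM in NL, a ratio of 13.9 (13.4 to 14.4). mir-205-5p, known from basal epithelial cells, had 184 RPM in L and 693 RPM in NL, a ratio of 0.27 (0.25 to 0.28). PC-203-3p, known from stratified epithelium, had a ratio of 0.27 (0.22 to 0.32), and the intervals of mir-182-5p, mir-183-5p and mir-96-5p held 1.

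miRNAs of other cell types also differed between the libraries. The 6 of stroma and smooth muscle summed to 8640 RPM in L and 14558 RPM in NL, with 3 intervals below 1, 2 above and that of mir-214-3p holding 1. mir-199a-3p, a miRNA of fibroblasts, had a ratio of 0.211 (0.208 to 0.213), whereas mir-143-3p, of smooth muscle, had 2.35 (2.31 to 2.40). The 3 of striated muscle summed to 4480 RPM in L and 696 RPM in NL and were all higher. mir-1-3p was higher by 6.35-fold and mir-133a-3p by 20.2-fold (15.8 to 26.2), more than any mir-200 member. mir-206-3p was higher by 3.47-fold (1.16 to 12.4), on only 13 reads in L and 5 in NL. Both of endothelium, mir-126-3p and mir-126-5p, were higher, summing to 487 RPM in L and 165 RPM in NL. The 6 of blood cells summed to 139 RPM in L and 146 RPM in NL, but they moved in opposite directions, with 3 intervals below 1 and 1 above. mir-142-5p, mir-142-3p and mir-223-3p, of white cells, had ratios of 0.50 (0.45 to 0.56), 0.52 (0.43 to 0.62) and 0.48 (0.29 to 0.77), whereas mir-451-5p, of red cells, had 2.50 (2.23 to 2.80). The interval of mir-150-5p held 1, and mir-144-3p, also of red cells, was listed at 3 reads in L and at 0 in NL. The share of all miRNAs with intervals above or below 1 was not computed. The counts of intervals therefore do not set these cell types apart from other miRNAs. The part of these cell types in the ratios of the mir-200 members was not tested.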

How the data were processed

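Small RNA was sequenced from mammary gland tissue, with 1 library in lactation (L) and 1 in non-lactation (NL). The labels name Trizol and a TruSeq small RNA kit, and the study's methods a miRNeasy kit. The authors trimmed adaptors, filtered reads for quality and for other RNA classes, and mapped the rest with ACGT-miR to pre-miRNAs (miRBase 17.0) and the genome (BTA 4.0). The deposited values are read counts per miRNA, which the authors made for the most abundant sequence and for all isomiRs, with the number of kinds of isomiRs. Whether the 3′ variants listed as conserved miRNAs were also counted as isomiRs of the members is not given in the sources used here.

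The 3 tables (283 known miRNAs, and conserved and candidate ones) were read in 18 columns. Where a further hairpin of a miRNA had a blank name, the name above was used. In the candidate table, isomiR reads and kinds were read in the order the values allow, which the header contradicts. isomiR sums blank for 2 candidates or below the most abundant sequence for 4 were left out of the count over all miRNAs. None of these were members.

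RPM used the clean reads that the study states, the total of L being 0.749 of that of NL. Ratios of ratios are odds ratios with exact conditional intervals. The fold rule needed at least 100 summed reads, and a listed 0 was set to 3 reads. No p-value is given, since 1 library per condition gives no dispersion. The work was done in Python 3.11.15 (scipy 1.17.1, numpy 2.4.6, matplotlib 3.10.9, pandas 2.3.3). TMM and DESeq2 factors came from R 4.3.3 (DESeq2 1.42.0, edgeR 4.0.16). The intervals were tested on simulated Poisson counts. These hold no PCR copies and no spread between cows, so the test does not cover either. Named are the members, entries with their coordinates or first 18 bases, the cell type markers, and the 3 known miRNAs of at least 1000 summed reads nearest in log2 ratio. Members, lists and tests were chosen with earlier results of these data known. Alternatives were other scalings, all isomiR reads, added 3′ variants, members left out, geometric means, a fold of 4 and other read minimums.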

Additional observations from a re-analysis of the deposited data

How the results depend on the processing

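All 5 members stayed above 1 in each of 8 alternatives, from 12.8 to 18.4 for mir-141, 6.66 to 10.8 for mir-200c, 3.19 to 6.21 for mir-200b, 1.82 to 2.62 for mir-200a and 1.67 to 2.39 for mir-429. For the scalings among them this was fixed in advance, since each multiplies all ratios by the same factor. Their lowest shift was -0.42 in log2 (no scaling), and the lowest member, mir-429, had a log2 ratio of 1.15. The family ratio of 6.41 was 6.59 scaled to the listed most abundant sequences, 6.90 to the listed isomiR reads, 5.98 to raw reads, 5.34 with TMM factors, 5.27 with DESeq2 size factors and 4.80 without scaling. It was 5.95 with all isomiRs and 6.08 with the 3′ variants added. TMM and DESeq2 shifted every log2 ratio by -0.26 and -0.28, and brought the median over the 273 miRNAs to -0.02 and -0.05, against 2.42 and 2.40 for the family. Members at least 2-fold higher were 4 with TMM, 3 with DESeq2 and 3 without scaling. Scaled to clean reads, 3 were at least 4-fold higher, or 2 with all isomiRs. The difference between the chromosomes, 2.36, was 3.75 with all isomiRs, 3.92 with geometric means, and 4.46 without mir-200c, 3.78 without mir-200b, 1.77 without mir-200a and 2.25 without mir-429. That between the seed groups, 2.50, was 1.97 with all isomiRs, 1.69 without mir-200c, 3.10 without mir-141, 2.74 without mir-200b and 2.62 without mir-429. It turned to 0.44 without mir-200a and 0.75 with geometric means, which follows from their construction: mir-141, with the largest ratio, then counts for more. All isomiR reads for the 10 pairs were chosen after seeing the data. The share of all miRNAs at least 2-fold higher was 32.4% with at least 10 summed reads, 29.8% with 1000 and 27.1% among known miRNAs. Depth limits the 5p arms and the rarest 3′ variants, some of which had fewer than 100 reads over both libraries. No paired analysis was possible because there is 1 library per condition.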
